A study of Mus musculus with 3 samples.

Results

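A set of 8 myeloid genes linked to neutrophils was followed through the suprarenal aorta RNA-seq data of a mouse model of dissecting abdominal aortic aneurysm (AAA). They were the alarmins *S100a8* and *S100a9*, the stefin *Stfa2l1*, the receptor *Csf3r*, the secreted granule proteins *Lcn2*, *Hp*, and *Chil3*, and the adaptor *Pram1*. They were taken by gene symbol, and all 8 were found among the 1238 entries of the 3 deposited comparisons. The study held 3 cohorts of male apoE null mice on a C57BL/6 background, which had pumps implanted at 12 weeks of age. AngII AAA mice received angiotensin II (AngII) and had an aneurysm harvested within 24 hours of diagnosis. AngII No AAA mice received AngII, had no aneurysm, and were collected at day 10, as were Saline mice, which received saline. All cohorts therefore lacked apolipoprotein E, and the presence of an aneurysm and the time of collection cannot be told apart in the AngII AAA cohort. Part of each suprarenal aorta or aneurysm was used for RNA. Each cohort was 1 library, made from equal amounts of RNA pooled over several animals, so that no p-value or replicate error could be given for any difference.

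The values were FPKM (fragments counted per kilobase of a transcript and relative to all mapped fragments), which are already divided by transcript length, so that levels of different genes can be compared. Each comparison was deposited as a list limited to genes with an unadjusted p-value under 0.05 in Cuffdiff. A gene that was not listed had a higher p-value or was not tested. The list of AngII AAA vs. AngII No AAA, called the aneurysm comparison below, held 600 entries. The list of AngII AAA vs. Saline, called the combined comparison, held 715. The list of AngII No AAA vs. Saline, called the infusion comparison, held 564. The comparisons share libraries and are not independent. A listed member had to differ between its libraries, and the number of members listed is therefore a description only. Levels are given below on the scale of the combined comparison, called the common scale, because the same library differed between lists by a constant factor. In such whole-tissue RNA, fewer cells of a type and less RNA per cell cannot be told apart.

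Neutrophils are short-lived white blood cells that leave the bone marrow under the control of granulocyte colony-stimulating factor and enter inflamed tissue along chemokine gradients. They carry ready-made granules of proteases and antimicrobial proteins. Their cytosol is rich in the S100A8 and S100A9 proteins, which pair as calprotectin, bind calcium and metals, and act as alarm signals when released. Neutrophils are among the first white blood cells to enter injured tissue. Several of the genes are not particular to neutrophils: *Lcn2* and *Hp* are also made by liver and fat cells, and *Chil3* is also a gene of mouse macrophages.

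The alarmin genes lie near each other on chromosome 3 of the mm9 build that the submitters' processing notes name, *S100a8* at chr3:90472993-90473956 and *S100a9* at chr3:90496552-90499643, with 22595 bases between them. *Chil3* lies on the same chromosome at chr3:105950472-105970482. The other members lie on separate chromosomes, *Lcn2* at chr2:32240157-32243259, *Csf3r* at chr4:125701903-125722219, *Hp* at chr8:112099028-112103072, *Stfa2l1* at chr16:36156897-36162034, and *Pram1* at chr17:33775001-33782651.

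Because most members were high in the same library, their promoters were searched for sites of 2 factors of neutrophil development. RefSeq gave windows in the GRCm38.p6 build for 7 of the 8 members, each with 250 bases before the transcription start and 50 bases after it. The C/EBP motif TTGCNNAA was in 2 of these members, *S100a9* and *Lcn2*, and in 10.8% of all 32851 promoter windows. The PU.1 site GAGGAAGT was in 2 members, *S100a8* and *Pram1*, and in 3.2% of all windows. Both strands were searched, and a match is a match of letters, not a measured site. The 250 upstream bases of the alarmin genes and of *Lcn2* are shown 5′ to 3′ on the strand of the gene, since these genes represent the patterns described below, with the match in capitals.
*S100a8*: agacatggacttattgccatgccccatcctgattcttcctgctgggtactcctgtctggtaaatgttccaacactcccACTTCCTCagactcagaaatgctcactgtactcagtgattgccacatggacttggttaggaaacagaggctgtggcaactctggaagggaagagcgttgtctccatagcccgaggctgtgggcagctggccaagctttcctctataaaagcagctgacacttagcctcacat
*S100a9*: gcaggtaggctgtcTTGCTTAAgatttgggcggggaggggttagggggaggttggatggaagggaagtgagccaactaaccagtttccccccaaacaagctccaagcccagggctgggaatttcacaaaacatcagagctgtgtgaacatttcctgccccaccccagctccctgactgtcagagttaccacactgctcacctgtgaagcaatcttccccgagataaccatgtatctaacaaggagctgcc
*Lcn2*: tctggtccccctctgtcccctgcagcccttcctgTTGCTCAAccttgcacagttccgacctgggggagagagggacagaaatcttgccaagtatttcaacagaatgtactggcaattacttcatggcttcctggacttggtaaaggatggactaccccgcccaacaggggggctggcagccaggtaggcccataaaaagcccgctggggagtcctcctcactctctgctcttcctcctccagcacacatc
The *S100a8* bases are chr3:90668821-90669070 on the plus strand, with the PU.1 match on the opposite strand and 172 bases upstream of the start. The *S100a9* bases are chr3:90695722-90695971 on the minus strand, with the C/EBP match 236 bases upstream. The *Lcn2* bases are chr2:32387740-32387989 on the minus strand, with the C/EBP match 216 bases upstream. The alarmin neighbours thus held different matches in these windows.

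All 8 members had their highest level in the AngII AAA library among the libraries in which they could be read. Of the 558 entries with values in 3 libraries, 83.5% were also highest in AngII AAA. The members' levels there ran from 21.1 FPKM for *Stfa2l1* to 1292 FPKM for *Hp*, a range of 61.2-fold.

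In AngII AAA, the alarmins were the most abundant members after *Hp*. *S100a8* was at 504 FPKM in AngII AAA, 16.4 in AngII No AAA, and 18.9 in Saline. *S100a9* was at 377, 13.1, and 22.5 FPKM in the same order. Both were thus far higher in the library with aneurysm than in either of the others. The AngII AAA level was 30.8-fold the AngII No AAA level for *S100a8* and 28.8-fold for *S100a9*. Against Saline the ratio was 26.6-fold for *S100a8* and 16.7-fold for *S100a9*. Neither gene was listed in the infusion comparison, and on the common scale AngII No AAA was at 0.864 and 0.581 of the Saline level, respectively.

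*Csf3r*, the receptor for granulocyte colony-stimulating factor, which drives neutrophil production and release, was likewise high in the library with aneurysm and low in the others. It was at 109 FPKM in AngII AAA, 4.50 in AngII No AAA, and 3.21 in Saline. The AngII AAA level was 24.2-fold that of AngII No AAA and 33.8-fold that of Saline. The libraries without aneurysm differed by 1.40-fold, and the gene was not listed between them.

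*Stfa2l1*, a stefin A gene of the family that inhibits cysteine proteases, was at 21.1 FPKM in AngII AAA and was listed at 0 in both other libraries, so no fold is given. *Pram1*, an adaptor protein of myeloid signalling, was at 33.0 FPKM in AngII AAA, 2.63 in AngII No AAA, and 2.88 in Saline. Its ratios were 12.5-fold over AngII No AAA and 11.5-fold over Saline. *Chil3*, a chitinase-like secreted protein also called Ym1, was at 73.8 FPKM in AngII AAA and 2.78 in AngII No AAA, a ratio of 26.5-fold. *Chil3* was not listed in either comparison with Saline, and its Saline level could not be read.

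*Lcn2*, which encodes lipocalin 2, a protein of secondary granules that binds bacterial iron carriers, differed in being far higher in AngII No AAA than in Saline. It was at 187 FPKM in AngII AAA, 63.2 in AngII No AAA, and 6.66 in Saline, with the larger step between Saline and AngII No AAA. Its log2 ratio in the aneurysm comparison was 1.57, beside a median of 1.63 for all entries. The AngII AAA level was 2.97-fold that of AngII No AAA and 28.2-fold that of Saline. In the infusion comparison, where it was read at 66.9 and 7.28 FPKM, the ratio was 9.20-fold. *Lcn2* was the 1 member that all 3 lists held.

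*Hp*, which encodes haptoglobin, the plasma protein that binds free hemoglobin and that is also stored in neutrophil granules, did likewise at the highest levels. It was at 1292 FPKM in AngII AAA, 673 in AngII No AAA, and 119.5 in Saline. It was listed in the combined comparison at 10.8-fold and in the infusion comparison at 5.63-fold. It was not listed in the aneurysm comparison, where the ratio across lists was 1.92-fold.

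**Figure D1:**
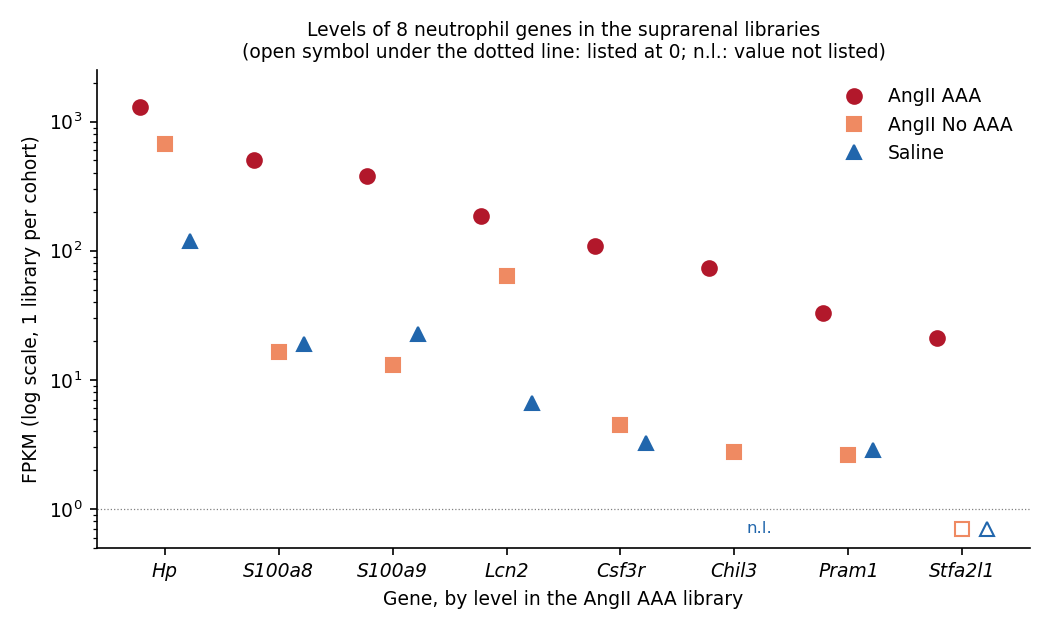
FPKM of the 8 genes in each of the 3 libraries, on the common scale and on a log axis. Each mark is 1 library of pooled RNA with no error bar; *S100a8*, *S100a9*, *Csf3r*, and *Pram1* are low in both libraries without aneurysm, whereas *Lcn2* and *Hp* are between the extremes in AngII No AAA.

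In the aneurysm comparison, which asks what accompanies the aneurysm among mice given AngII, 7 of the 8 members were listed and all 7 were higher in AngII AAA, by at least 2-fold, beside 79% of the entries. At least 4-fold higher were 6 of these 7, beside 31.5% of the 600 entries. Among the members, *Stfa2l1* aside, the largest ratios were those of *S100a8* and *S100a9*, at ranks 9 and 10 of the 600 entries by ratio. *Lcn2* was at rank 318.

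In the combined comparison, 7 members were listed, and all 7 were higher in AngII AAA, beside 84.6% of the entries, which were all at least 2-fold higher. All 7 were at least 4-fold higher, beside 63.1% of the 715 entries. *Csf3r* at rank 37, *Lcn2* at rank 39, and *S100a8* at rank 42 stood close together, and *Hp* was last of the members at rank 125. The order of *Csf3r* and *S100a8* differed between these comparisons, and without replicates neither order has an error.

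In the infusion comparison, which asks what accompanies AngII in the absence of an aneurysm, *Lcn2* and *Hp* were listed, both higher in AngII No AAA, beside 63.5% of the entries. Both were at least 4-fold higher in AngII No AAA, beside 11.9% of the 564 entries. They ranked 17 and 34 by ratio. Because the smallest fold that this list held for a gene higher in AngII No AAA was 1.91, a member with a smaller difference was not listed.

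**Figure D2:**
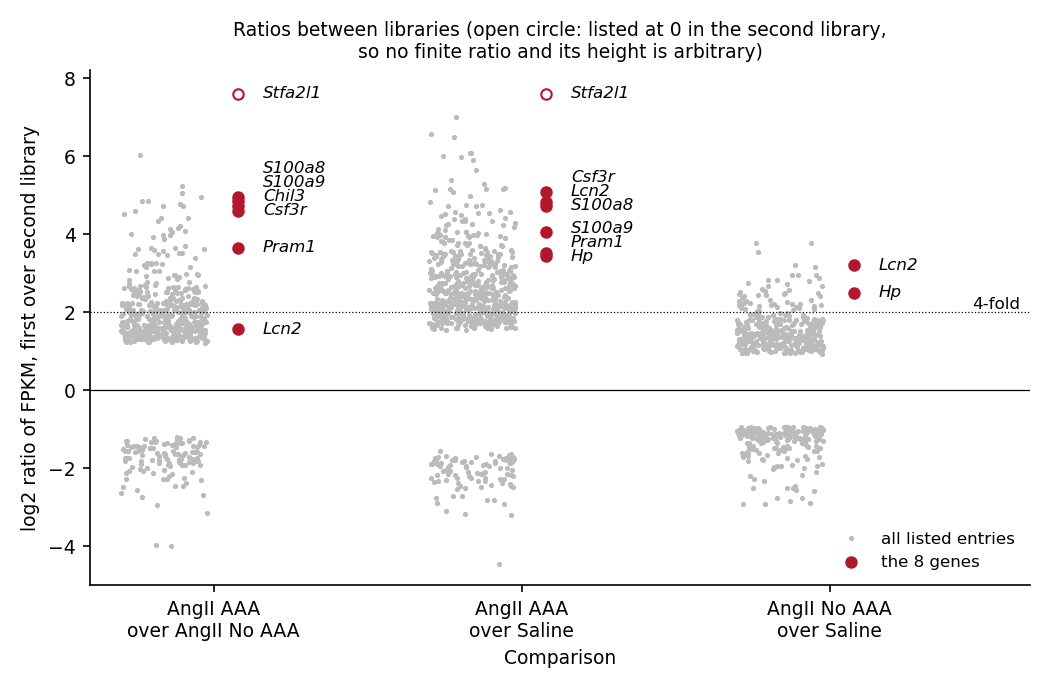
Log2 ratio of FPKM between libraries for each gene in each of the 3 comparisons, 1 pair of pooled libraries per point. *S100a8*, *S100a9*, *Csf3r*, and *Pram1* have points in both comparisons of AngII AAA, *Hp* has points against Saline, and *Lcn2* has points in all 3; the open circles for *Stfa2l1* mark a gene listed at 0 in the second library, and their height has no meaning.

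The members thus divided by their level in AngII No AAA relative to Saline. On the common scale this ratio was 9.49 for *Lcn2*, 5.63 for *Hp*, 1.40 for *Csf3r*, 0.914 for *Pram1*, 0.864 for *S100a8*, and 0.581 for *S100a9*. AngII No AAA was above Saline for 3 of the 7 members read in 3 libraries, below for 3, and both were at 0 for *Stfa2l1*. Of the 466 entries that were highest in AngII AAA, 91.4% had AngII No AAA above Saline.

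**Figure D3:**
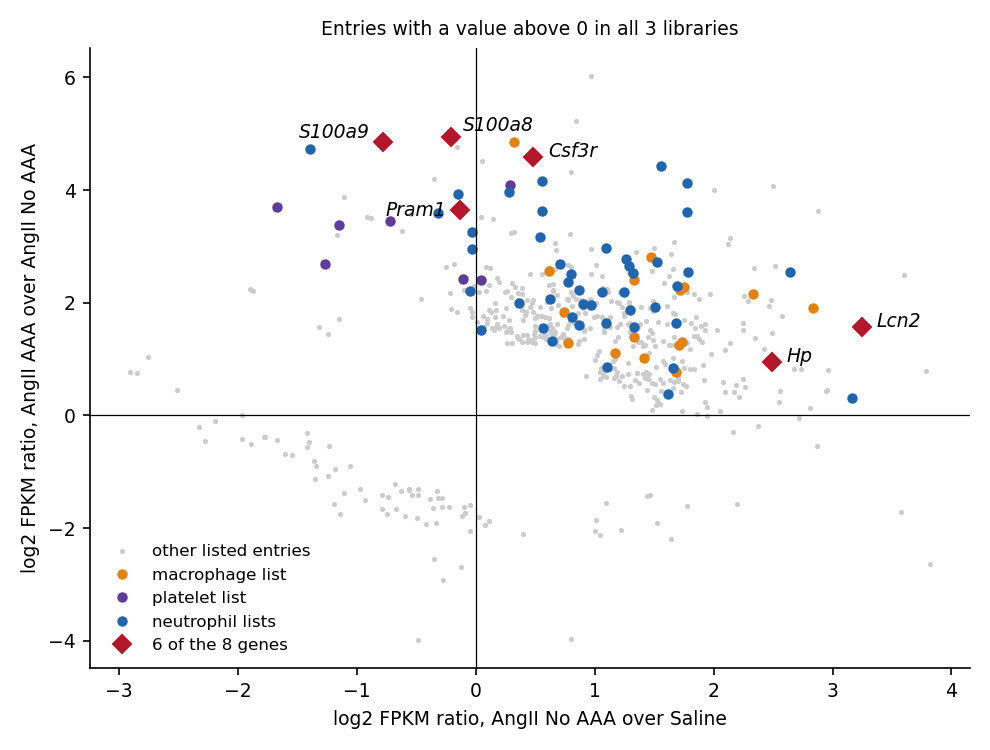
Log2 ratio of AngII AAA over AngII No AAA against log2 ratio of AngII No AAA over Saline, 1 point per entry above 0 in all 3 libraries. Members are named, and *Stfa2l1* and *Chil3* are not shown. *Lcn2* and *Hp* lie far along the step from Saline to AngII No AAA. On that step *S100a8*, *S100a9*, *Csf3r*, and *Pram1* lie between -0.78 (*S100a9*) and 0.48 (*Csf3r*), and they lie high on the step to AngII AAA.

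Ratios of members within a library do not depend on the scale between lists. *S100a8* over *S100a9* was 1.34 in AngII AAA, 1.25 in AngII No AAA, and 0.842 in Saline, so that the calprotectin partners kept similar levels. *S100a8* over *Csf3r* was 4.63, 3.64, and 5.89 in the same order. By contrast, *Lcn2* over *S100a8* was 0.372 in AngII AAA, 3.86 in AngII No AAA, and 0.351 in Saline. *Lcn2* was therefore more abundant than *S100a8* in AngII No AAA but not in the other libraries. *Lcn2* over *Csf3r* was likewise 1.72, 14.1, and 2.07. *Hp* over *Lcn2* was highest in Saline, at 18.0, and was 10.98 in AngII No AAA and 6.89 in AngII AAA. *Chil3* over *S100a8* was 0.147 in AngII AAA and 0.170 in AngII No AAA.

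The members were also set against *Cd68*, a lysosomal protein of macrophages, and *Lyz2*, a lysozyme of macrophages and neutrophils. *S100a8* over *Cd68* was 1.81 in AngII AAA, 0.276 in AngII No AAA, and 1.05 in Saline. *Csf3r* over *Cd68* was 0.390, 0.0759, and 0.179 in the same order. Both ratios were lowest in AngII No AAA, where *Cd68* itself was 3.30-fold its Saline level. *Lcn2* over *Cd68* was 0.673, 1.07, and 0.370, and was highest in AngII No AAA. *S100a8* over *Lyz2* was 0.454, 0.102, and 0.283.

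**Figure D4:**
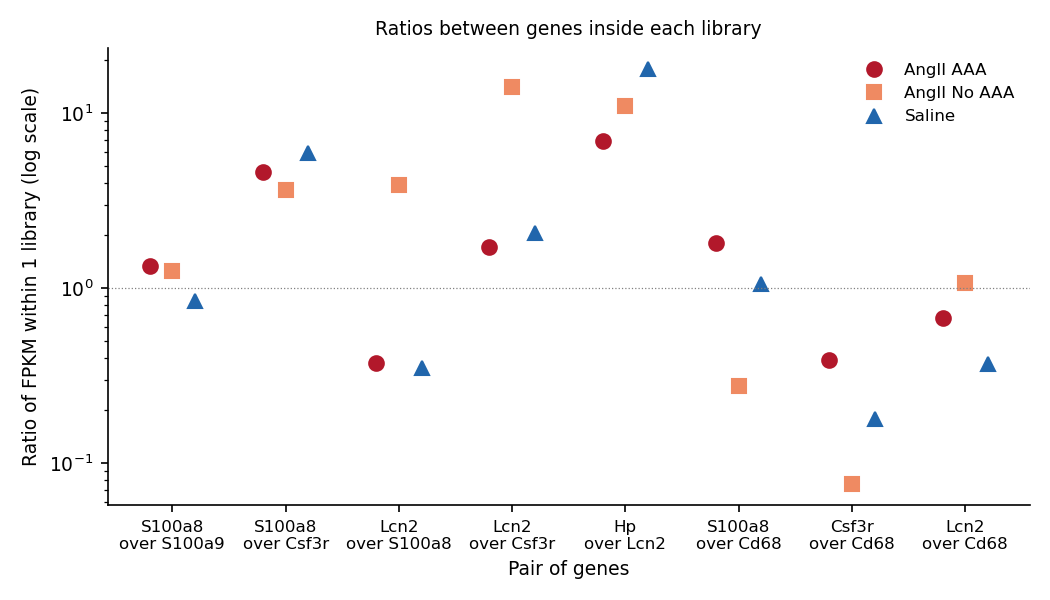
Ratios of FPKM between genes within each library, on a log axis, 1 point per pooled library. *Lcn2* over *S100a8* is above 1 in AngII No AAA only, and *S100a8* over *S100a9* stays between 0.842 and 1.34.

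The neutrophil label was set beside 9 defining markers, of which *S100a8*, *S100a9*, and *Csf3r* are themselves members and therefore give no separate check. In each comparison of AngII AAA, 6 of the 9 were listed, these 3 members among them, and all 6 were at least 4-fold higher in AngII AAA, beside 31.5% of the entries of the aneurysm comparison and 63.1% of those of the combined comparison. A listed marker had to differ, as for the members, so this is a description only. The markers that are not members were *Cxcr2*, *Mmp8*, and *Il1r2* in the aneurysm comparison and *Cxcr2*, *Mmp8*, and *Retnlg* in the combined comparison. None of the 9 was listed in the infusion comparison, and *Ly6g* and *Fpr1* were in no list. *Cxcr2*, the chemokine receptor that brings neutrophils to tissue, was at 49.2 FPKM in AngII AAA, 3.23 in AngII No AAA, and 3.59 in Saline. *Mmp8*, the neutrophil collagenase, was at 44.9, 2.09, and 0.712 FPKM. *Cxcr2* thus had AngII No AAA below Saline, as the alarmins did, and *Mmp8* had it above, as *Csf3r* did. The levels of *Cxcr2* and *Mmp8* were low in both of these libraries, and the differences were not tested. Of the 5 defining markers read in 3 libraries, members included, AngII No AAA was above Saline for 2 and below for 3, with a median ratio of 0.901.

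Beyond the members, 103 genes of neutrophil granules, receptors, signalling, and ligands were examined. Of these, 46 were listed in the aneurysm comparison, all 46 higher in AngII AAA, beside 79% of all entries, with 32 at least 4-fold higher, beside 31.5%. The median log2 ratio of the 46 was 2.52, beside 1.63 for all entries. In the combined comparison, 47 were listed, all higher in AngII AAA, beside 84.6% of all entries, with 43 at least 4-fold higher, beside 63.1%. Their median log2 ratio was 3.31, beside 2.26. In the infusion comparison, 15 were listed, 14 of them higher and 1 lower, where 63.5% of all entries were higher, and 2 at least 4-fold higher, beside 11.9%. Their median log2 ratio was 1.46, beside 1.16. Among the 45 read in 3 libraries, 39 had AngII No AAA above Saline and 6 below, with a median ratio of 1.96, beside 453 of all 558 entries above, so that the list lay near the background in this order. Median log2 ratios above those of all entries were not particular to neutrophil genes. In the aneurysm and combined comparisons they were 2.20 and 3.31 for macrophage genes and 3.38 and 2.44 for platelet genes. For adrenal cortex genes they were 4.47 and 4.59. Hepatocyte and smooth muscle genes had negative medians.

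By role, the secondary and tertiary granule genes included, beside *Mmp8*, *Mmp9*, the gelatinase of tertiary granules, at 76.1 FPKM in AngII AAA, 4.85 in AngII No AAA, and 3.99 in Saline. The primary granule genes *Mpo* and *Elane* and the secondary granule gene *Ltf* were not listed. Of 8 primary granule genes, 2 were listed in the aneurysm comparison and 3 in the combined comparison. All were higher in AngII AAA, beside 79% and 84.6% of all entries. In AngII AAA, AngII No AAA, and Saline, *Serpinb1a* was at 12.8, 1.34, and 1.37 FPKM and *Ctsc* at 110, 36.9, and 14.7. *Cd63* was at 143, 79.2, and 36.9 FPKM. Of the receptors, *Il1r2*, a decoy receptor for interleukin 1, was at 52.7 FPKM in AngII AAA and 1.59 in AngII No AAA. *Clec4d*, a C-type lectin receptor of myeloid cells, was at 78.3 FPKM in AngII AAA, 4.49 in AngII No AAA, and 1.31 in Saline. *Retnlg*, a resistin-like gene of neutrophils, was at 67.0 FPKM in AngII AAA and 2.87 in Saline. *Mmp8*, *Mmp9*, *Il1r2*, *Clec4d*, and *Retnlg* were under 5 FPKM in the other libraries read. They were named for the largest folds of their lists, so low levels there follow from the choice. Other genes of these lists were not so low. The granule gene *Lyz2* was at 161 FPKM in AngII No AAA and 66.9 in Saline. The receptor gene *Cd14* was at 19.3 FPKM in AngII No AAA and 8.15 in Saline.

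Listed ligands of the neutrophil chemokine receptor were also higher in AngII AAA than in the other libraries in which they were read. *Cxcl2* was at 67.5 FPKM in AngII AAA, 5.53 in AngII No AAA, and 1.61 in Saline. *Cxcl5* was at 28.7 FPKM in AngII AAA and 1.81 in AngII No AAA. *Csf3*, the ligand of the *Csf3r* product, was not listed. *Ppbp*, a chemokine of platelets, was at 147 FPKM in AngII AAA, 5.55 in AngII No AAA, and 14.6 in Saline, and was the 1 gene lower in AngII No AAA among the 15 listed.

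Among intracellular and secreted myeloid genes, *Wfdc21*, a small secreted protein with a whey acidic protein domain, was at 77.8 FPKM in AngII AAA, 62.5 in AngII No AAA, and 6.98 in Saline. *Wfdc17*, of the same family, was at 272, 46.5, and 7.45 FPKM. These were the 2 of the 15 genes listed in the infusion comparison that were at least 4-fold higher there, a share near the 11.9% of all entries.

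Markers of other cell types moved with the members, and their part in the members' differences was not tested. Of 24 macrophage genes, 13 were listed in the aneurysm comparison, 18 in the combined comparison, and 15 in the infusion comparison, all of them higher in the first library of the comparison. Their summed level was 1233 against 235 FPKM, 2184 against 237 FPKM, and 989 against 380 FPKM, in that order of comparisons. These sums and those below are over the genes that a list held and on the scale of that list. Of all entries, 79%, 84.6%, and 63.5% were higher in the first library, in that order of comparisons. In the infusion comparison, 206 of 564 entries were lower. These shares are the background of the counts below as well. All 18 macrophage genes read in 3 libraries had AngII No AAA above Saline, with a median ratio of 2.72, beside 453 of all 558 entries and 91.4% of those highest in AngII AAA. Of 16 platelet genes, 9 were higher in AngII AAA than in AngII No AAA, 7 were higher in AngII AAA than in Saline, and 3 were lower in AngII No AAA than in Saline, with sums of 1468 against 97.8, 1475 against 130, and 25.9 against 77.2 FPKM. Of 11 adrenal cortex genes, 8 were higher in AngII AAA in each of its comparisons, with sums of 528 against 35.97 and 518 against 28.8 FPKM, and none was listed in the infusion comparison. Of 17 lymphocyte genes, 2 were higher in AngII AAA in each of its comparisons, with sums of 34.1 against 6.58 and 35.3 against 5.59 FPKM. Of 17 mast cell, eosinophil, and basophil genes, 1 was higher in AngII AAA, at 7.95 against 0.860 and 8.22 against 1.995 FPKM. Neither group had a gene listed in the infusion comparison.

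For *Hp* and *Lcn2*, liver, fat, and red cell genes were examined as well. Of 18 hepatocyte genes, 4 were listed in each comparison of AngII AAA and all 4 were lower there, and none in the infusion comparison. Their summed levels were 58.2 against 166 FPKM in AngII No AAA and 60.1 against 231 FPKM in Saline. Of all entries, 126 of 600 and 110 of 715 were lower in AngII AAA, which is also the background for smooth muscle below. Albumin (*Alb*) was at 34.6 FPKM in AngII AAA, 87.1 in AngII No AAA, and 128 in Saline, the reverse of the order of *Hp*. Of 18 adipocyte genes, 1 was listed, *Retn*, in the infusion comparison, at 181 FPKM in AngII No AAA and 45.7 in Saline. Of 11 erythroid genes, 6 were higher in AngII AAA than in Saline and 10 were higher in AngII No AAA than in Saline, with sums of 1396 against 234 and 1923 against 429 FPKM, and none was listed between the AngII libraries. *Hbb-b2*, a beta globin, was at 754 FPKM in AngII AAA, 778 in AngII No AAA, and 118 in Saline. As a check of the tissue, 9 of 18 smooth muscle genes were listed in the aneurysm comparison and 5 in the combined comparison, all lower in AngII AAA, with sums of 790 against 2708 and 102 against 578 FPKM, and with *Acta2* at 314 FPKM in AngII AAA and 956 in AngII No AAA.

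To find genes with a like profile, the distance between pairs of log2 ratios, AngII AAA over each of the other libraries, was computed for 538 genes. The median of the members was taken over those above 0 in all 3 libraries, which leaves out *Stfa2l1* and *Chil3*. It pools *Lcn2* and *Hp* with members of the other pattern. Nearest to this median were *Pf4* at a distance of 0.0367, *Mmp9* at 0.211, *Slfn4* at 0.319, *Cyp11b1* at 0.429, and *Clec4n* at 0.527. *Pf4* is a platelet chemokine, *Cyp11b1* is an adrenal steroid enzyme, and *Mmp9*, *Slfn4*, and *Clec4n* are myeloid genes, so that nearness in these 2 ratios did not separate cell types. Nearest to *Lcn2* were *Ms4a6c*, *Thbs1*, and *Ptgs2*, at 0.352, 0.519, and 0.553. Nearest to *Hp* were *Ms4a7*, *Blnk*, and *Lox*, at 0.0693, 0.137, and 0.174.

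The counting could place reads of some members on a near copy. Of the 61-base stretches of each transcript in GENCODE M21, none of those of *S100a8*, *S100a9*, *Lcn2*, and *Hp* was found in a transcript of another gene. The share was 6.28% for *Csf3r*, 16.2% for *Stfa2l1*, whose copies include *Stfa2*, 22.5% for *Chil3*, whose copies include *Chil4*, and 94.5% for *Pram1*, nearly all of which is contained in the overlapping model *Gm20507*. The levels of *Stfa2l1*, *Chil3*, and *Pram1* are therefore uncertain.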

How the data were processed

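RNA-seq was analysed for 3 libraries of pooled suprarenal aorta RNA, 1 per cohort, with 35000000 to 43000000 reads each per the labels. The authors used FastQC, HISAT2, Cufflinks, and Cuffdiff with mm9, and deposited FPKM values of both libraries for each of 3 comparisons, limited to genes with an unadjusted p-value under 0.05. Their fold change, p-value, and q-value columns were not used. The depth of each library cannot be read from FPKM.

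Folds were computed from the deposited FPKM with no pseudocount, and 4-fold was used as the threshold. No test was run. Lists were put on the common scale by the median ratio of genes shared between lists (0.968 over 385 genes for AngII AAA); the 2 routes for AngII No AAA differed by 3.20%. Start coordinates count from 0 in the files and are printed from 1. Genes beyond the members were named by largest fold per neutrophil list, by level per other list, and by distance to the members; *Mpo*, *Elane*, *Ltf*, *Csf3*, *Cd68*, and *Lyz2* were added by role. The members and lists were chosen with earlier results of these data known. A planned comparison of member proteins was not run. The calculations were tested on simulated data. Python 3.11.15, numpy 2.4.6, pandas 2.3.3, and matplotlib 3.10.9 were used. Alternatives were folds of 2 and 8, a pseudocount of 1 FPKM, a minimum of 10 FPKM, and the values of the other lists.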

Additional observations from a re-analysis of the deposited data

Results flagged for a closer look

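*S100a8*, *S100a9*, and *Pram1* were lower in AngII No AAA than in Saline while being higher in AngII AAA than in Saline. The log2 ratio of AngII No AAA over Saline on the common scale was -0.21 for *S100a8*, -0.78 for *S100a9*, and -0.13 for *Pram1*, and the log2 ratio of AngII AAA over Saline was 4.73, 4.07, and 3.52. The difference in direction was not tested, since each cohort had 1 library. Saline was 1.16-fold, 1.72-fold, and 1.09-fold AngII No AAA for these genes, each less than 1.91-fold, the smallest fold that the infusion comparison listed for genes of either direction.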

How the results depend on the processing

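No direction reversed among 64 values recomputed under the alternatives, but many of these could not reverse. Counts of genes past a threshold have no direction. A pseudocount added to both libraries cannot change which of them is higher. In the infusion comparison, 1 member passed 8-fold (3.19% of entries did) in place of 2 passing 4-fold, and 14 other neutrophil genes were at least 2-fold higher (61% of entries were) in place of 2 at least 4-fold higher. When each ratio was taken from the lists of the other comparisons, fewer members had values. At least 4-fold higher were 0 of 2 in the aneurysm comparison, 1 of 1 in the combined comparison, and 1 of 5 in the infusion comparison. The 2 were *Lcn2*, at a log2 ratio of 1.61, and *Hp*, at 1.92-fold. Only *Lcn2* passed in the infusion comparison. The other ratios there were 1.40 for *Csf3r*, 0.914 for *Pram1*, 0.864 for *S100a8*, and 0.581 for *S100a9*. A pseudocount of 1 FPKM moved 10 log2 ratios by more than 0.1 and at most by 0.436. No paired analysis was possible because each cohort had 1 library, and no library could be left out.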

Other observations

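*Lrg1*, a secreted glycoprotein of neutrophil granules and of liver, was at 286 FPKM in AngII AAA, 160 in AngII No AAA, and 50.7 in Saline. This is the order of *Lcn2*, *Hp*, and *Csf3r*, and of 426 of all 558 entries read in 3 libraries. *S100a4*, a relative of the alarmins, was at 90.4 FPKM in AngII AAA, 69.8 in AngII No AAA, and 22.8 in Saline, unlike *S100a8* and *S100a9*. *Ifitm1*, a membrane protein, was at 73.3, 6.09, and 7.603 FPKM, the order of *S100a8*. These genes were named after their values were seen. The limits are 1 pooled library per cohort, a tissue collection time that differs between cohorts, lists that hold only genes under the authors' p-value threshold, and a depth per library that is unknown from the values.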
